A study of Mus musculus with 32 samples.

Results

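The complement genes described here are C1qa, C1qb, C1qc, C3, C4b, C3ar1, C5ar1, Cfb and Serping1, chosen by name as components, receptors and regulators of complement. Of these 9 genes, 8 were measured, each by 1 probe, among 19505 genes on the arrays; no probe was named C3 in the annotation used, so C3 was not analysed here. RNA came from male wild-type C57BL/6J mice of 6 to 12 weeks weighing 20 to 25 g, and from 2 tissues, the cerebrum and the spinal cord. Photothrombosis closes small vessels with a light-activated dye, and it was made either in the cerebrum (cPT) or in the cord (scPT). Each tissue gave 4 control arrays, 4 arrays at day 1, 4 at day 3 and 4 at day 7, so 32 arrays fall into 8 groups. Whether control mice were operated on, and whether each array stands for its own mouse, is not in the labels, so p-values measure the spread between these arrays, which may be technical. The series as a whole asks how the 2 injuries differ, with microglia and remyelination in its title.

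Complement is a cascade of blood and tissue proteins that tags surfaces, calls in leukocytes and can perforate membranes. The classical pathway starts when C1q, a hexamer of trimers built from A, B and C chains, binds a target and activates the proteases C1r and C1s, which cut C4 and C2. The alternative pathway amplifies through factor B, and both meet at C3, whose fragment C3a, like C5a further down, signals through a receptor on myeloid cells. In the brain and cord C1q is made mainly by microglia, where it is known for marking synapses and debris for removal.

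All values below are log2 values relative to each gene's own centre, so they have no zero level and cannot be compared between genes. Arrays of day 3 and day 7 appeared to be centred apart from the control and day 1 arrays, which was inferred from the values, and their offset was rebuilt per gene. A difference is a log2 difference between group means with its standard error (SE), fitted by limma over all 32 arrays, and "rose" or "passed" means an adjusted p under 0.05 over the 19505 genes. Where the offset enters, the difference had to exceed a bound, the uncertainty of that offset, which for the measured complement genes was 0.16 to 0.29 at day 3 and 0.18 at day 7. Comparisons between the tissues on the same day need no offset. Comparisons with 1 set of controls share those arrays and are given side by side. In tissue RNA, a change in the number of cells of a type and a change in RNA per cell cannot be told apart.

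Some arrays stood apart. Cord day 3 replicate 1 had the lowest array weight of all 32, 0.225, and a mean homeostatic microglia marker level of -0.78 against 0.59 to 0.98 in the other 3 cord day 3 arrays. The 4 cord controls carried skeletal muscle markers at mean levels of 3.74, 3.16, 1.31 and 0.28, against -0.34 to -0.21 in cerebral controls, and cord control 2 also carried fibroblast and meningeal markers at 1.86. Values across genes spread more widely in cord day 7 arrays (SD 0.788 to 0.908) than in cerebral day 7 arrays (0.387 to 0.415). Sample titles of each group run in number ranges of their own. Titles of cord day 7 start with P and those of all other groups with G, and the labels do not say why. If the ranges or letters mark batches, these cannot be told apart from the groups.

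The genes lie on 5 chromosomes (GRCm38.p6, RefSeq). C1qb (chr4:136880126-136886200), C1qc (chr4:136889801-136892936) and C1qa (chr4:136895916-136898844) form a cluster. Cfb (chr17:34856374-34862514) and C4b (chr17:34728139-34743902) both lie in the MHC class III region. C3ar1 is at chr6:122847140-122856157, C5ar1 at chr7:16246743-16259540 and Serping1 at chr2:84765360-84775444. RefSeq promoter windows of 300 bases (250 before the start to 50 after it) were at hand for 4 of the 8, C1qb, C1qc, C3ar1 and C5ar1. The windows of C1qb (chr4:136886151-136886450), C1qc (chr4:136892865-136893164) and C3ar1 (chr6:122856108-122856407) are printed because these 3 genes rose most among those with a window, 5′ to 3′ on the minus strand, with capitals for GAGGAA or its reverse complement TTCCTC, the core letters bound by PU.1, a myeloid transcription factor.
C1qb: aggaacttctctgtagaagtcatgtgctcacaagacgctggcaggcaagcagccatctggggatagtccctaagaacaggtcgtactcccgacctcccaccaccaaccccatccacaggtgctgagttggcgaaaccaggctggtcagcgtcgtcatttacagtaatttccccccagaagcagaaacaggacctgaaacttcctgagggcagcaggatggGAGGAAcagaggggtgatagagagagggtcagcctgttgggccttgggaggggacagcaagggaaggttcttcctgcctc
C1qc: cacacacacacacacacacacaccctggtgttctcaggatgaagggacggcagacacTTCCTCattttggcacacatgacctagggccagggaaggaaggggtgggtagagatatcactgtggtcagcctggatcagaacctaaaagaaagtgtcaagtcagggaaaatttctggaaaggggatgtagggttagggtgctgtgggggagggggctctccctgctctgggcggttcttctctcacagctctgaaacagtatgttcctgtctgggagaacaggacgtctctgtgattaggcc
C3ar1: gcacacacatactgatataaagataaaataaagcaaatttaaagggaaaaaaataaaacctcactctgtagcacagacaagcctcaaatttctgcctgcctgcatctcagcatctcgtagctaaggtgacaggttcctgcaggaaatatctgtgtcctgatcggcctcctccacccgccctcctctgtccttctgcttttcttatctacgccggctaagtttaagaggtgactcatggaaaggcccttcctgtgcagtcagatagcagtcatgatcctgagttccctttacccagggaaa

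GAGGAA occurred once in the C1qb window, 30 bases before the start, and once in the C1qc window as TTCCTC, 193 bases before it. The C3ar1 and C5ar1 windows hold neither form. These letters occur on either strand in 28.3% of all 32851 RefSeq promoter windows of this length. No window of the 4 held TTCNNNGAA (a STAT-type pattern, searched on both strands, in 8.30% of all windows). A match describes the letters and is not a binding site.

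Most of these complement genes, a list chosen with earlier results of these data known, rose after both injuries. In the cerebrum 6 of 8 rose at day 1, 5 at day 3 and 6 at day 7, and none fell. Of all genes, 17.1%, 6.33% and 6.65% passed in these comparisons in either direction, and 8.91%, 3.48% and 4.53% rose. In the cord 6 of 8 rose at day 1, 6 at day 3 and 7 at day 7, and none fell, where 31.9%, 19.9% and 31.8% of all genes passed and 15.8%, 10.3% and 15.3% rose. The injured and control arrays did not overlap for 6, 6 and 6 of the 8 genes in the cerebrum, as for 23.5%, 25.5% and 26.9% of all genes, and for 5, 5 and 7 in the cord, as for 26.6%, 25.9% and 43.8% of all genes. The median difference over the 8 genes was 1.80, 1.69 and 2.25 in the cerebrum and 0.87, 1.77 and 3.21 in the cord, against medians over all genes between -0.10 and 0.02. Of all genes that passed, 68.1% had risen at cerebral day 7 (57.6% with the deposited values, 56.7% with quantile normalization and 51.9% with the offset as exact) and 51.7% at cord day 3 (63.8% with array medians subtracted). With cord controls 3 and 4 alone, an alternative chosen after seeing the data, 6, 7 and 8 of the 8 rose in the cord, and without cord day 3 replicate 1 the cord day 3 count was 5.

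**Figure D1:**
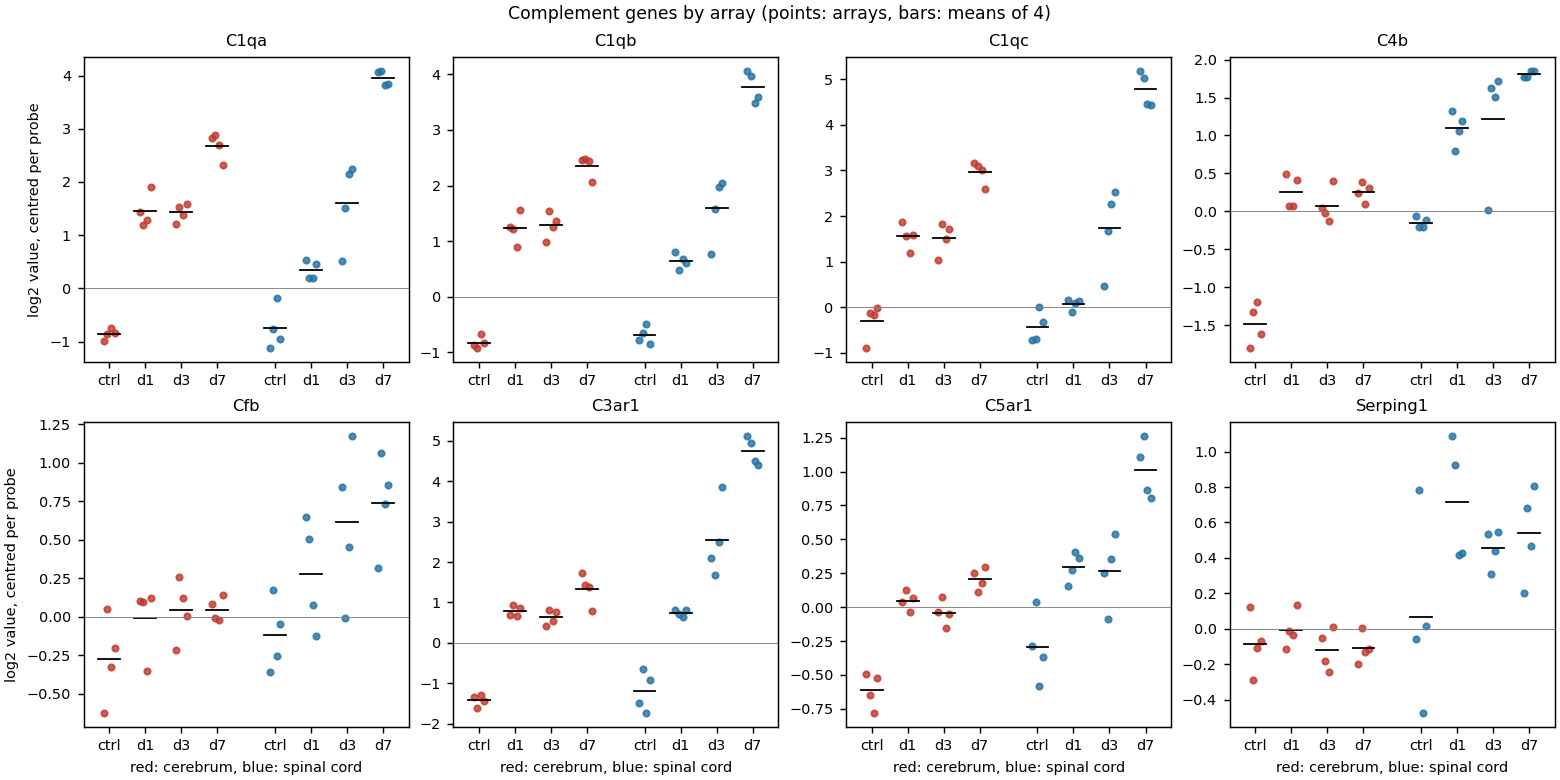
Each panel shows 1 complement gene, with the log2 value relative to the gene's centre on the vertical axis and the 8 groups on the horizontal axis; points are arrays and bars are group means. C1qa, C1qb, C1qc and C3ar1 step up to their highest values in cord day 7, where C3ar1 runs from 4.41 to 5.12, while Serping1 stays between -0.47 and 1.09.

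The 3 chains of C1q, the recognition molecule of the classical pathway, all rose on each day in the injured cerebrum. C1qa stood at -0.999, -0.86, -0.74 and -0.85 in the cerebral controls and at 1.44, 1.20, 1.29 and 1.90 at day 1. At day 3 the cerebral arrays read 1.21, 1.53, 1.39 and 1.58, and at day 7 they read 2.82, 2.89, 2.69 and 2.31. Every injured cerebral array lay above every control, and all 4 day 7 arrays lay above those of day 1 and day 3. C1qa rose by 2.32 ± 0.23 (SE, n = 4 and 4; 4.98-fold, adjusted p = 3.66e-08) at day 1, by 2.29 ± 0.23 (adjusted p = 1.23e-07) at day 3 and by 3.54 ± 0.23 (11.6-fold, adjusted p = 3.24e-12) at day 7. By size of the difference C1qa ranked 20, 29 and 17 among the 19505 genes.

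In the cord C1qa also rose on each day. The cord controls stood at -1.12, -0.76, -0.19 and -0.95, and the day 1 arrays at 0.54, 0.19, 0.20 and 0.46. Day 3 arrays were at 0.52, 1.51, 2.15 and 2.24, and day 7 arrays at 4.07, 4.09, 3.82 and 3.84. Replicate 1, the array that stood apart, was the lowest of day 3 and lay within the day 1 range, and no injured array overlapped the controls. The differences from control were 1.10 ± 0.23 (2.15-fold, adjusted p = 0.000567), 2.36 ± 0.23 (adjusted p = 1.37e-08) and 4.71 ± 0.23 (26.2-fold, adjusted p = 3.67e-16), and without cord day 3 replicate 1 the day 3 difference was 2.72. In order of level the groups ran cord day 7, cerebral day 7, cord day 3, cerebral day 1, cerebral day 3, cord day 1, cord control and cerebral control. Cord day 3, cerebral day 1 and cerebral day 3 overlapped in that order, as did the 2 control groups.

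C1qb followed the same groups. Its cerebral arrays ran from -0.92 to -0.67 in controls, from 0.90 to 1.57 at day 1, from 0.99 to 1.53 at day 3 and from 2.07 to 2.48 at day 7. Its cord arrays ran from -0.84 to -0.48, from 0.48 to 0.80, from 0.78 to 2.04 and from 3.49 to 4.06. No injured group overlapped its controls. The rises were 2.06 ± 0.19, 2.11 ± 0.19 and 3.18 ± 0.19 in the cerebrum (adjusted p from 2.56e-13 to 7.05e-09) and 1.33 ± 0.19, 2.28 ± 0.19 and 4.47 ± 0.19 in the cord (adjusted p from 6.81e-18 to 2.59e-06). Cord day 7 was 22.1-fold above its control, against 9.09-fold in the cerebrum.

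Among the C1q chains C1qc had the largest measured difference at cord day 7 and the smallest at cord day 1; whether the chains differ from each other was not tested. Cord controls read -0.73, -0.69, 0.01 and -0.33, and cord day 1 arrays read 0.15, -0.10, 0.10 and 0.13, so the groups overlapped. Day 3 arrays were at 0.46, 1.68, 2.27 and 2.54 and day 7 arrays at 5.18, 5.03, 4.46 and 4.43. The day 1 difference of 0.50 ± 0.28 did not pass (adjusted p = 0.177; 95% interval -0.07 to 1.08), although it passed in a fit of only the arrays compared (adjusted p = 0.0405). C1qc rose by 2.17 ± 0.28 at cord day 3 (adjusted p = 1.64e-06) and by 5.21 ± 0.28 at cord day 7, a fold of 37.0 (adjusted p = 2.02e-15). In the cerebrum it rose by 1.85 ± 0.28, 1.82 ± 0.28 and 3.26 ± 0.28 (adjusted p from 1.62e-09 to 0.000113), with control arrays from -0.89 to -0.01 and all injured arrays at 1.04 or above. Over the 32 arrays, which share the injury groups, Pearson's r was 0.992 between C1qa and C1qb, 0.978 between C1qa and C1qc and 0.969 between C1qb and C1qc.

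C4b, which encodes the C4 protein that C1s cuts to form the C3 convertase, rose in every injured group. It was also higher in the control cord than in the control cerebrum. Cerebral controls stood at -1.80, -1.33, -1.20 and -1.62 and cord controls at -0.07, -0.21, -0.20 and -0.11, a difference of 1.34 ± 0.22 with no overlap, as for 31.5% of all genes (2.53-fold, adjusted p = 8.34e-06). On day 1 the cerebral arrays read 0.49, 0.07, 0.07 and 0.42, on day 3 they read 0.04, -0.02, -0.13 and 0.40, and on day 7 they read 0.25, 0.39, 0.10 and 0.31. On day 1 the cord arrays read 1.32, 0.80, 1.06 and 1.19, on day 3 they read 0.02, 1.63, 1.50 and 1.72, and on day 7 they read 1.77, 1.78, 1.85 and 1.85. The low day 3 value is again replicate 1, which overlapped the cerebral day 3 arrays but no cord control. C4b rose by 1.75 ± 0.22, 1.56 ± 0.22 and 1.75 ± 0.22 in the cerebrum (adjusted p from 1.44e-06 to 3.55e-05) and by 1.24 ± 0.22, 1.37 ± 0.22 and 1.96 ± 0.22 in the cord (adjusted p from 2.93e-08 to 6.42e-05). Without cord day 3 replicate 1 the cord day 3 rise was 1.76. C4b has a near-identical neighbour, C4a, whose own probe rose by 2.29, 2.32 and 2.22 in the cerebrum and by 1.39, 1.87 and 2.39 in the cord, so which of the 2 genes each probe reads is uncertain.

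Cfb, the protease of the alternative pathway, passed only in the cord at day 3 and day 7. Cord controls were at -0.36, 0.17, -0.25 and -0.05, and day 7 arrays at 0.31, 1.06, 0.73 and 0.86, without overlap. The day 7 rise was 0.86 ± 0.20 (1.82-fold, adjusted p = 0.00344), and under quantile normalization it was 0.58 and did not pass (adjusted p = 0.105). At cord day 3 the arrays were at 0.84, -0.01, 0.45 and 1.17, which overlap the controls. The day 3 rise of 0.74 ± 0.20 (adjusted p = 0.0313) was lost when cord control 1 or 3, or cord day 3 replicate 1 or 4, was left out (Cfb 0.552 to 0.695, adjusted p from 0.0782 to 0.155). In the cerebrum Cfb differed from control by 0.27, 0.32 and 0.32 (SE 0.20), which did not pass, and the tissues' responses did not differ past the threshold on any day (0.13, 0.42 and 0.54 ± 0.28).

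Serping1 encodes C1 inhibitor, which blocks C1r and C1s. In the cerebrum its controls ran from -0.29 to 0.12 and its injured arrays from -0.24 to 0.13, and the differences of 0.08, -0.03 and -0.02 (SE 0.17) did not pass. The 95% intervals ran from -0.27 to 0.43 at day 1, from -0.38 to 0.32 at day 3 and from -0.38 to 0.33 at day 7. Cord controls stood at -0.06, 0.78, -0.47 and 0.01, and cord day 1 arrays at 1.09, 0.92, 0.41 and 0.43. Cord control 2, the array with fibroblast and meningeal markers at 1.86, was the high control, and it lay within or above the range of every injured cord group. Serping1 rose by 0.65 ± 0.17 at cord day 1 (1.57-fold, adjusted p = 0.00460), but not in a fit of only the arrays compared (adjusted p = 0.0724). Its cord differences at day 3 (0.39 ± 0.17, adjusted p = 0.296) and day 7 (0.47 ± 0.17, adjusted p = 0.127) did not pass. Without cord control 2 they were 0.63 (adjusted p = 0.0135) and 0.71 (adjusted p = 0.00273) and passed. The part that fibroblast or meningeal RNA in cord control 2 has in this was not tested.

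C3ar1, the receptor for C3a, had the largest measured rise of the 8 genes, at cord day 7. Cerebral controls were at -1.35, -1.62, -1.30 and -1.43, and cerebral arrays were at 0.70, 0.93, 0.66 and 0.87 on day 1, 0.43, 0.81, 0.53 and 0.78 on day 3, and 1.74, 1.43, 1.39 and 0.80 on day 7. Cord controls were at -1.48, -0.65, -1.73 and -0.92, and cord arrays were at 0.80, 0.70, 0.65 and 0.81 on day 1, 2.10, 1.68, 2.50 and 3.87 on day 3, and 5.12, 4.94, 4.51 and 4.41 on day 7. Injured arrays all lay above the controls of their tissue, and cord arrays of day 1, day 3 and day 7 did not overlap each other. C3ar1 rose by 2.21 ± 0.28, 2.06 ± 0.28 and 2.76 ± 0.28 in the cerebrum, that is 4.64-fold, 4.17-fold and 6.78-fold (adjusted p from 4.08e-08 to 1.49e-05). In the cord it rose by 1.94 ± 0.28, 3.73 ± 0.28 and 5.94 ± 0.28, that is 3.83-fold, 13.3-fold and 61.4-fold (adjusted p from 6.74e-17 to 3.69e-06). Among all 19505 genes it ranked 19 at cord day 3 and 14 at cord day 7 by size of rise.

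C5ar1, the receptor for C5a on neutrophils, monocytes and microglia, rose on day 1 and day 7 in both tissues. Its cerebral arrays ran from -0.78 to -0.49 in controls, from -0.04 to 0.13 at day 1, from -0.16 to 0.07 at day 3 and from 0.11 to 0.30 at day 7. Cord arrays ran from -0.58 to 0.04 in controls, from 0.16 to 0.41 at day 1, from -0.09 to 0.54 at day 3 and from 0.81 to 1.26 at day 7. Only cord day 3 overlapped its controls. C5ar1 rose by 0.66 ± 0.12 at cerebral day 1 (adjusted p = 0.00031), by 0.82 ± 0.12 at cerebral day 7, by 0.60 ± 0.12 at cord day 1 and by 1.31 ± 0.12 at cord day 7 (2.47-fold, adjusted p = 2.5e-09). Day 3 did not pass in either tissue (0.57 ± 0.12, adjusted p = 0.147 in the cerebrum, and 0.56 ± 0.12, adjusted p = 0.0761 in the cord), against a bound of 0.29, the widest of these genes because its day 3 offset is a range. With that offset taken as exact, C5ar1 passed at day 3 in both tissues (adjusted p = 0.0012 and 0.00052), and the cord rise also passed without cord control 2 (0.67, adjusted p = 0.0124) or cord day 3 replicate 2 (0.68, adjusted p = 0.0109).

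**Figure D2:**
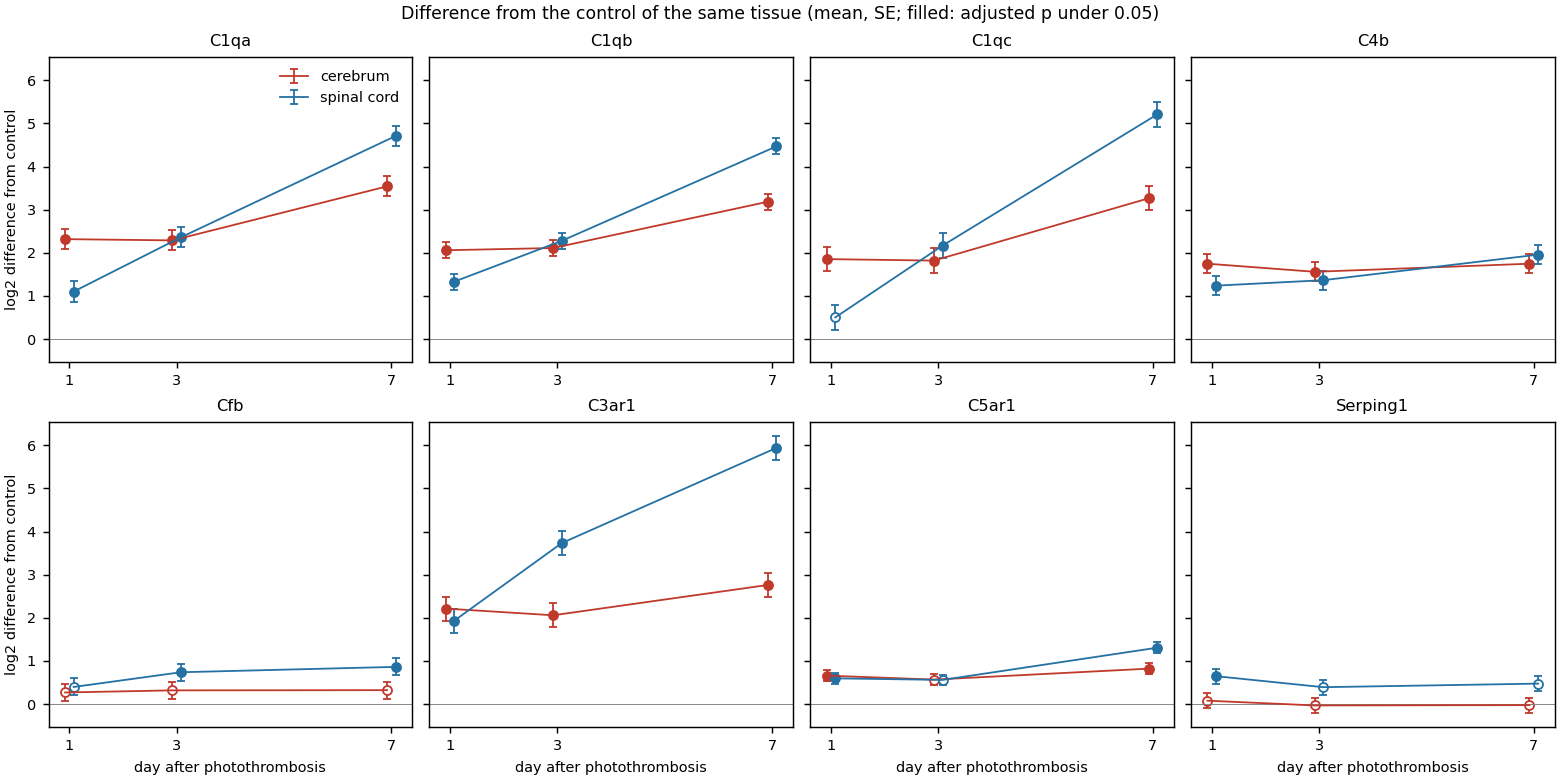
Log2 difference from the control of the same tissue (vertical axis) against the day after photothrombosis (horizontal axis), 1 panel per complement gene, with SE bars, red for the cerebrum and blue for the cord; filled points passed the test. The cord values of C1qa, C1qb, C1qc and C3ar1 climb with the day, to 4.71, 4.47, 5.21 and 5.94 at day 7.

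The difference between the tissues' injury responses was tested directly, as the cord difference from control minus the cerebral one. At day 1 the responses differed by -1.22 ± 0.33 for C1qa (adjusted p = 0.0160) and -1.35 ± 0.40 for C1qc (adjusted p = 0.0253), a smaller rise in the cord for 2 of the 8 genes, where 11.3% of all genes passed and 6.58% were lower. C1qb differed by -0.73 ± 0.26, which did not pass (adjusted p = 0.0688). The remaining 5 genes differed by -0.51 to 0.57 and did not pass. The C1qc call was lost without cerebral control 1 (-1.16), cerebral day 1 replicate 1 (-1.25), cord control 3 (-1.20) or cord day 1 replicate 2 (-1.29), with adjusted p from 0.0504 to 0.0614. C1qb passed without cerebral day 1 replicate 3 (-0.84, adjusted p = 0.0477) or cord day 3 replicate 1 (adjusted p = 0.0148), and Serping1, at 0.57 ± 0.24 over all arrays (adjusted p = 0.126), passed without cord control 2 (0.81, adjusted p = 0.0102). At the same day homeostatic microglia markers were lower in the cord response for 5 of 9 genes and higher for none, among them P2ry12 (-2.38) and Siglech (-2.41). Their mean level was -0.81 to -0.43 in cord day 1 arrays and 0.44 to 0.63 in cerebral day 1 arrays, and their part in the C1q difference was not tested.

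At day 3 the receptor C3ar1 was the 1 gene of the 8 that passed, with a rise 1.67 ± 0.39 larger in the cord (3.19-fold, adjusted p = 0.00588; 1.82 without cord day 3 replicate 1), where 9.27% of all genes passed and 4.08% were higher. The C1q chains differed by 0.07, 0.17 and 0.35, within their errors of 0.26 to 0.40. Without cord control 2, Serping1 passed too (0.66, adjusted p = 0.0310). At day 7 the rise was larger in the cord for 5 of the 8 genes, the C1q chains and both receptors, where 27.6% of all genes passed and 13% were higher. C1qa differed by 1.17 ± 0.33 (adjusted p = 0.0079), C1qb by 1.28 ± 0.26 (adjusted p = 0.000385), C1qc by 1.94 ± 0.40 (adjusted p = 0.000389) and C3ar1 by 3.18 ± 0.39 (9.05-fold, adjusted p = 3.95e-07). C5ar1 differed by 0.49 ± 0.17 (adjusted p = 0.0339), a call lost without any 1 of 8 arrays: cerebral control 1 or 4, cerebral day 7 replicate 2 or 3, cord control 3 or 4, or cord day 7 replicate 1 or 2 (0.39 to 0.48, adjusted p from 0.0547 to 0.0958). C4b (0.21 ± 0.31), Cfb (0.54 ± 0.28) and Serping1 (0.50 ± 0.24) did not pass, though Serping1 did without cord control 2 (0.74, adjusted p = 0.00649).

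These tissue differences at day 3 and day 7 depend on whether the arrays are quantile normalized. Quantile normalization was run on the centred values and gives all arrays the same spread of these. By design it narrows the cord day 7 arrays (SD 0.788 to 0.908 before it) and widens the cerebral day 7 arrays (0.387 to 0.415). It turned the sign at day 7 for C1qa (-1.06, adjusted p = 0.0222), C1qb (-0.95, adjusted p = 0.00692) and C1qc (-0.68, adjusted p = 0.184). It left C3ar1 higher but short of the threshold at day 7 (0.78, adjusted p = 0.0995) and day 3 (0.74, adjusted p = 0.174). At day 3 it also set C1qa to -1.21 and C1qb to -1.002, both passing, and C1qc to -1.04. The day 1 differences kept their sign under it and were larger, at -2.13 for C1qa, -1.40 for C1qb and -2.41 for C1qc, all passing. Against their own controls the C1q chains and C3ar1 rose in both tissues at day 3 and day 7 under this scaling as well, for example C1qa by 3.97 in the cerebrum and 2.91 in the cord at day 7. Which scaling is nearer to the tissue levels was not tested.

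**Figure D3:**
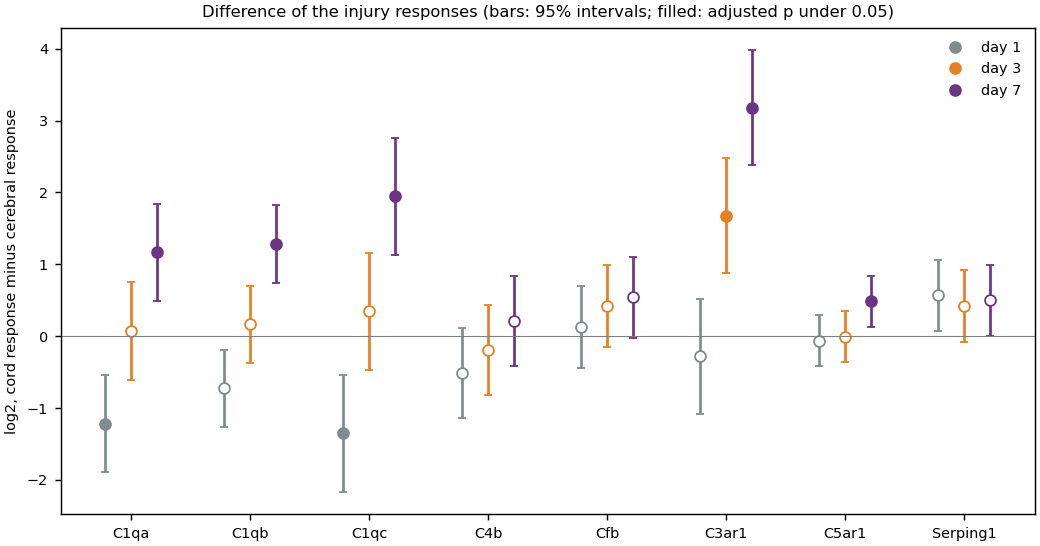
Cord response minus cerebral response (log2, vertical axis) for each complement gene (horizontal axis) at day 1, day 3 and day 7, with 95% confidence intervals and filled points for those that passed. C1qa and C1qc lie below 0 at day 1 (-1.22 and -1.35) and above it at day 7 (1.17 and 1.94), where quantile normalization turns their sign to -1.06 and -0.68.

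Injured cord and injured cerebrum were also set against each other on the same day. At day 1 the cord was higher in C4b (0.83 ± 0.22) and Serping1 (0.72 ± 0.17), where 17.3% of all genes were higher, and lower in C1qa (-1.11 ± 0.23), C1qb (-0.59 ± 0.19) and C1qc (-1.48 ± 0.28), where 18.7% were lower. The C1qb call was lost without cerebral day 1 replicate 4 (-0.48, adjusted p = 0.0573). At day 3 the cord was higher in 5 genes, C4b, C3ar1, C5ar1, Cfb and Serping1, where 18.8% of all genes were. C3ar1 stood 1.90 ± 0.28 higher there (adjusted p = 1.53e-06), without overlap. Leaving out cord day 3 replicate 1 brought C1qa (0.54), C1qb (0.57) and C1qc (0.64) past the threshold and lost C5ar1 (0.31) and Cfb (0.50). C5ar1 (0.31 ± 0.12, adjusted p = 0.0471) sat at the threshold, so that leaving out any of 21 of the 32 arrays lost it. At day 7 all 8 were higher in the cord, where 22.8% of all genes were, from 0.65 ± 0.17 for Serping1 to 3.41 ± 0.28 for C3ar1, and the groups were apart for 8 of 8 genes, as for 46.7% of all genes. Quantile normalization again turned the C1q chains, to -1.10, -0.87 and -1.15 for C1qa, C1qb and C1qc at day 3 and to -0.95, -0.82 and -0.78 at day 7.

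The control groups of the 2 tissues differed in 2 of the 8 genes. C4b (1.34, above) and C5ar1 (0.31 ± 0.12, adjusted p = 0.0447) were higher in the cord controls, where 17.2% of all genes were higher. The C5ar1 groups overlapped, and its call was lost without cerebral control 2 (0.30) or 3 (0.26), cerebral day 3 replicate 4 (0.31), or cord control 1 (0.31), 2 (0.20) or 4 (0.34). C1qa, C1qb, C1qc, C3ar1, Cfb and Serping1 differed by -0.13 to 0.23, which did not pass.

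Over time the C1q chains moved in both tissues and C3ar1 in the cord. In the cerebrum no gene of the 8 passed between day 1 and day 3 (0.00513% of all genes did) or between day 3 and day 7 (0.287% did) by limma. At an unadjusted p under 0.05 the counts were 0 and 3. The day 7 arrays of 4 of the 8, C1qa, C1qb, C1qc and C5ar1, lay above those of day 3 without overlap, as the groups did not overlap for 21.4% of all genes. The differences were 1.25, 1.07 and 1.44 for the C1q chains against a bound of 0.34, and 0.25 for C5ar1 against 0.47. The same differences, tested with the offsets taken as exact, passed for 3 genes, and they also passed for 2 without cerebral day 7 replicate 4, for 1 without cord control 3 and for 3 without cord day 3 replicate 1 or 4. From day 1 to day 7 the chains rose by 1.22 ± 0.23, 1.12 ± 0.19 and 1.41 ± 0.28 (C1qa, C1qb, C1qc), 3 of 8 where 1.55% of all genes rose. This rests on the rebuilt offset, since the deposited values without it differ by 0.16, 0.33 and 0.10, which did not pass.

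In the cord 4 of the 8, the C1q chains and C3ar1, rose from day 1 to day 3 (6.83% of all genes rose) and again from day 3 to day 7 (3.6% rose). C1qc rose by 1.67 ± 0.28 and then by 3.04 ± 0.28 (8.23-fold), and C3ar1 by 1.80 ± 0.28 and then by 2.21 ± 0.28. Under quantile normalization 2 and 1 of the 8 passed in these comparisons. From day 1 to day 7 there were 6 rises where 13.9% of all genes rose, led by C1qc (4.71 ± 0.28, 26.1-fold) and C3ar1 (4.003 ± 0.28, 16.03-fold). C4b was the smallest of these together with C5ar1 (0.72 ± 0.22, adjusted p = 0.0364, and 0.71 ± 0.12). The C4b call was lost without cord day 1 replicate 2 or 3 or any 1 cord day 7 array (0.62 to 0.73, adjusted p from 0.0542 to 0.108), and quantile normalization turned its sign (-0.27). All these steps between cord days include the rebuilt offset, which was subtracted from the day's arrays and so sets part of their size. It was -0.24 at day 3 and -1.31 at day 7 for C1qc, and 0.11 and -0.07 for C3ar1. Cord day 3 replicate 1 also lowers the C1qc mean of day 3 (0.46, where the others were at 1.68 to 2.54).

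Of the rest of the pathway, 46 further complement genes, 44 were measured. In the cerebrum 5 rose and 2 fell at day 1, 3 rose and 0 fell at day 3, and 4 rose and 0 fell at day 7, where 8.91%, 3.48% and 4.53% of all genes rose and 8.22%, 2.85% and 2.12% fell. In the cord 13 rose and 5 fell at day 1, 10 rose and 2 fell at day 3, and 15 rose and 2 fell at day 7, where 15.8%, 10.3% and 15.3% of all genes rose and 16.1%, 9.63% and 16.6% fell. Without cord day 3 replicate 1, 13 rose and 2 fell at cord day 3. Among the receptors, 3 of 8 rose at cerebral day 7 and 6 of 8 at cord day 7, against those 4.53% and 15.3% of all genes. Itgam, the alpha chain of complement receptor CR3, rose by 1.56, 1.79 and 1.47 in the cerebrum and by 1.49, 3.21 and 3.46 in the cord. Cd93, first described as a C1q receptor, rose by 0.84, 1.02 and 0.99 in the cerebrum and by 1.47, 2.58 and 3.81 in the cord. Itgax, the alpha chain of CR4, rose by 0.86 ± 0.18 at cerebral day 7 and by 2.04 ± 0.18 at cord day 7. Itgb2, the beta chain of both CR3 and CR4, rose by 0.47, 1.18 and 2.14 in the cord. In the cerebrum Itgb2 did not pass on any day (0.21, 0.22 and 0.36). C5ar2, the other C5a receptor, passed only in the cord, at day 3 (0.54) and day 7 (1.19), as did Vsig4, a macrophage receptor for C3 fragments (0.56 and 0.83).

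Among the classical and lectin components, the proteases C1s1 (0.89, 1.15 and 1.02 ± 0.19) and C1ra (0.64, 0.87 and 0.89 ± 0.14) rose at all 3 cord days and did not pass in the cerebrum. C2, which forms the convertase with C4, rose by 0.86 ± 0.21 at cord day 7, and the ficolin gene Fcna, a lectin pathway sensor, by 1.54 ± 0.19. Of the alternative and terminal components, Cfp (properdin, which stabilizes the alternative convertase) rose by 1.30 ± 0.24 and 2.89 ± 0.24 at cord day 3 and day 7. C6, of the membrane attack complex, rose by 0.56, 0.69 and 1.81 ± 0.18 in the cord. The other terminal genes did not pass at cord day 3 or day 7. At day 7 these were C7 (0.04), C8a (0.16), C8b (-0.14), C8g (-0.21), C9 (0.06) and Hc (-0.02). At cord day 1 C8a (0.36), C8b (0.30) and C8g (0.51) rose, and C7, C9 and Hc did not pass. Among the 14 regulators measured, 1 rose and 4 fell at cord day 1, none rose and 1 fell at day 3, and 1 rose and 2 fell at day 7, where 16.1%, 9.63% and 16.6% of all genes fell. Susd4, a membrane inhibitor of the convertases, fell by 0.37, 0.79 and 1.46 (± 0.14) in the cord, and Cd46 was lower at day 1 (-0.43) and day 7 (-0.49). Cd59b and Cr1l were lower at cord day 1 (-0.88 and -0.47), and Clu rose at day 1 in both tissues (0.57 and 0.59 ± 0.10). The cord difference from control minus the cerebral one passed above 0 for 3 and below 0 for none of the 44 genes on day 1, for 6 and 1 on day 3 and for 12 and 1 on day 7. Of all genes, 4.7%, 4.08% and 13% passed above 0 and 6.58%, 5.19% and 14.6% below it. Under quantile normalization these counts were 4 and 5, 3 and 2, and 4 and 4, and without cord day 3 replicate 1 they were 3 and 2, 5 and 1, and 13 and 1.

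Markers of cell types that can hold complement RNA were read in the same groups, and not all of them rose with these genes. Mean monocyte and macrophage marker levels were -0.49 to -0.34 in cerebral controls and 0.73 to 1.03 at cerebral day 7, and -0.37 to 0.32 in cord controls and 2.85 to 3.31 at cord day 7. Of these 11 markers, 4 rose at cerebral day 7 and 9 at cord day 7, with Ms4a7 at 3.74 and 6.38, where 4.53% and 15.3% of all genes rose. The difference of responses passed above 0 for 6 of them at day 7, where 13% of all genes did. Neutrophil markers were at -0.21 to -0.03 at cerebral day 7 and at 2.11 to 3.53 at cord day 7, where 1 and 7 of 9 rose. Homeostatic microglia markers were at 0.54 to 0.77 and 0.89 to 1.04 in the same groups, where 4 and 5 of 9 rose and none fell; P2ry12, a defining one, differed from control by -0.01 and -0.07. Fibroblast and meningeal markers were at 0.88 to 1.32 at cerebral day 7 and at 3.37 to 4.09 at cord day 7, where 5 and 7 of 9 rose. Postn, a matrix protein of fibroblasts, rose by 3.06 and 5.83, and its responses differed by 2.77 ± 0.55 (adjusted p = 0.000254), as 5 of the 9 markers differed upward. Endothelial markers were at -0.13 to -0.07 and 0.71 to 0.79, where 1 and 4 of 8 rose, and Cdh5, the endothelial cadherin, differed from control by 0.66 at cerebral day 7 and rose by 2.52 at cord day 7 (difference of responses 1.86 ± 0.32, adjusted p = 5.29e-05). Of the other endothelial markers, only Cldn5 passed in that difference (0.78). Vwf (0.56), Pecam1 (0.45) and Kdr (0.20) did not pass, nor did Flt1 (-0.32), Tek (-0.41) and Ly6c1 (-0.58), which went the other way. Reactive astrocyte markers were at -1.50 to -1.41 in cerebral and -0.50 to 0.48 in cord controls, the same order as C4b, and 7 of 12 rose at cerebral day 1 and 11 of 12 at cord day 1, where 8.91% and 15.8% of all genes rose. Centred values cannot show whether a defining marker is absent, and the part of any cell type in the complement differences was not tested.

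**Figure D4:**
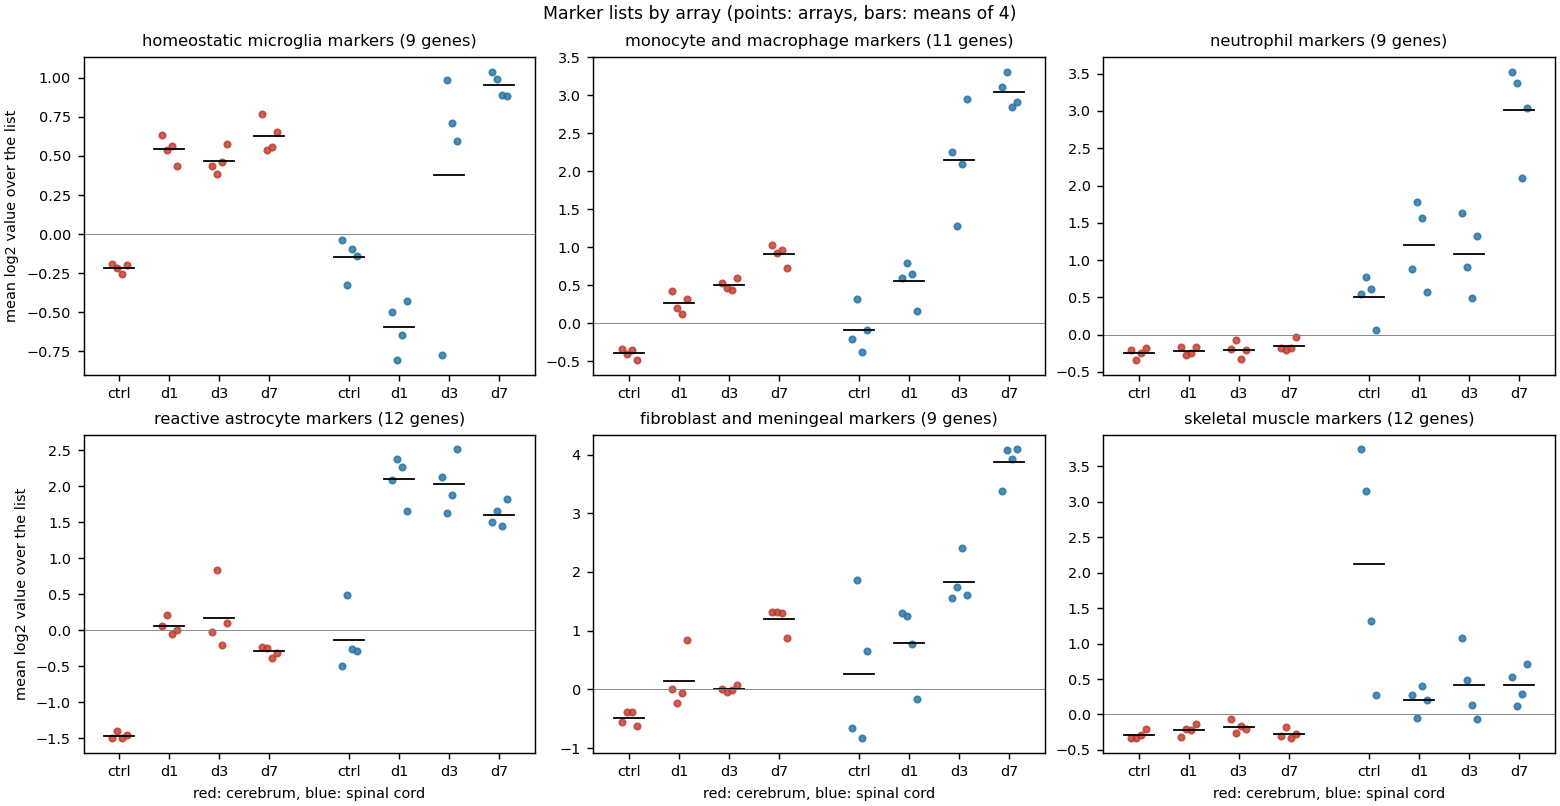
Mean log2 level of each marker list (vertical axis) in every array by group (horizontal axis), 1 panel per list; points are arrays, red for the cerebrum and blue for the cord, and bars are group means. Monocyte and macrophage markers run from 2.85 to 3.31 at cord day 7 against 0.73 to 1.03 at cerebral day 7, and the low microglia point at cord day 3 (-0.78) is replicate 1.

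The genes whose values followed each complement gene most closely over the 32 arrays were found by Pearson's r, as a description. C1qa and C1qb were most like Ctsz, a lysosomal protease (r = 0.980 and 0.986), and Tyrobp, a myeloid signalling adaptor, was among the first 3 for all C1q chains (0.974, 0.977 and 0.974). C1qc was also close to Trem2, a lipid receptor of microglia and macrophages (0.971). C3ar1 was most like Spi1, which encodes PU.1 (0.983), and C5ar1 most like Lpcat3 (0.937), with Spi1 close behind (0.933). C4b was most like its paralog C4a (0.979), then Gnai2 (0.949) and Gfap, the astrocyte filament (0.941). Cfb was nearest to Ifitm2, an interferon-induced gene (0.880), and Serping1 to Plekha4 (0.876). All these correlations share the 8 groups, and the r of Serping1 with the C1q chains was 0.103 to 0.247.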

How the data were processed

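RNA of 32 mouse tissue samples had been hybridised as biotin-labelled material to 1-colour arrays, 4 per group. The deposited values are log2 values, centred per probe; scanner software, summarisation and genome build were not given in the sources used here. Centring was found from the values: controls and day 1 arrays share a median of 0 in 100% of probes, while day 3 and day 7 arrays were taken as each centred apart with the controls. Of the probes that could test this, 86.8% at day 3 and 86.4% at day 7 fitted it, against 68.7% to 70.2% with other arrays in place of the controls, so the centring is inferred and was not stated. For each probe the day's offset is the one that brings the median of controls and that day's arrays to 0 (a range where several fit, midpoint used). Its uncertainty, the distance from midpoint to range end plus an allowance of 0.162 at day 3 and 0.177 at day 7, is the bound that a difference had to exceed. Of 22206 probes, 19572 had 1 gene symbol, and probes of a gene were averaged, giving 19505 genes.

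All 32 arrays entered 1 limma fit (limma 3.58.1, R 4.3.3) of 8 group means with Benjamini-Hochberg adjustment over all genes; 19 comparisons were made. The script was tested on simulated data. Arrays give no read depth, so 4 arrays per group limit the precision. The 9 genes were given by name, and these, the other complement genes and the marker lists were chosen with earlier results of these data known. All members measured are named. Of the other complement genes that passed only a selection is named, and of the markers the defining ones. The 3 genes with the highest Pearson's r to each member over all arrays were taken as most alike. Alternatives were the deposited values without offset, the offset as exact or at its ends, quantile normalization, array medians subtracted, array weights, a variance filter, the most variable probe per gene, only the arrays compared, each array left out, and cord controls 3 and 4 alone, the last chosen after seeing the data. Promoter windows came from RefSeq (GRCm38.p6).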

Additional observations from a re-analysis of the deposited data

Results flagged for a closer look

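In 3 of the 64 groups of 4 arrays checked, 1 array lay far from the other 3; chance does this in about 1 in 20 groups. C4b in cord day 3 replicate 1 was at 0.0226, where the others were at 1.50 to 1.72, and this array also stood apart in its weight and its microglia markers. C1qb in cerebral day 7 replicate 4 was at 2.07, where the others were at 2.44 to 2.48. Cfb in cerebral day 1 replicate 3 was at -0.352, where the others were at 0.0953 to 0.122.

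The injury response differed between cord and cerebrum by a direct test (limma, adjusted over all genes) in 8 cases. At day 1 it was smaller in the cord for C1qa (-1.22, adjusted p = 0.0160) and C1qc (-1.35, adjusted p = 0.0253). At day 3 it was larger in the cord for C3ar1 (1.67, adjusted p = 0.00588). At day 7 it was larger in the cord for C1qa (1.17, adjusted p = 0.00790), C1qb (1.28, adjusted p = 0.000385), C1qc (1.94, adjusted p = 0.000389), C3ar1 (3.18, adjusted p = 3.95e-07) and C5ar1 (0.49, adjusted p = 0.0339). The differences at day 3 and day 7 did not keep their call under quantile normalization, where those of C1qa, C1qb and C1qc at day 7 changed sign.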

How the results depend on the processing

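Of 1331 results recomputed under settings other than leaving out an array, 1249 kept direction and side of the threshold, 27 changed sign, 24 newly passed and 31 no longer passed; with 1 array left out these were 3787 of 3872, 20, 12 and 53. Quantile normalization moved most. It turned the cord minus cerebrum response at day 3 of C1qa (-1.21), C1qb (-1.002) and C1qc (-1.04), and at day 7 of C1qa (-1.06), C1qb (-0.949), C1qc (-0.676) and C4b (-0.609), so that 2 genes passed at each of these days, all downward. It also turned cord minus cerebrum at day 3 (C1qa -1.10, C1qb -0.869, C1qc -1.15) and day 7 (C1qa -0.952, C1qb -0.816, C1qc -0.780) and C4b from cord day 1 to day 7 (-0.268), and left 2 genes rising from cord day 1 to day 3 and 1 from day 3 to day 7. Other sign changes were small. Serping1 at cerebral day 3 became 0.00254 with array weights, and at cerebral day 7 it became 0.00242 with the deposited values, 0.0163 with quantile normalization, 0.00702 with array medians subtracted and 0.00152 with array weights. The day 3 tissue difference of C5ar1 became 0.0370 with array medians subtracted and 0.0551 with array weights, and that of C4b became 0.0326 with array weights. With cord controls 3 and 4 alone, the tissue difference was 0.112 for C5ar1 at day 1, -0.112 for C1qa and 0.167 for C5ar1 at day 3, and the control difference was 0.145 for C1qc and -0.144 for Serping1. Counts of passing genes moved for the day 1 tissue difference (4 with array weights), the day 3 one (2 with cord controls 3 and 4 alone), cord minus cerebrum at day 3 (3 with only the arrays compared), the controls (1 with array weights, with only the arrays compared and with cord controls 3 and 4 alone), cerebral day 7 minus day 3 (3 with the offset as exact, with array weights and with only the arrays compared), cerebral day 7 minus day 1 (0 with the deposited values, where 3 passed with the offset) and cord day 3 minus day 1 (2 with only the arrays compared). The cause was not tested. Leaving out single arrays gave ranges of 1 to 3 genes for the tissue difference at day 1, 1 to 2 at day 3, 3 to 6 for cord minus cerebrum at day 3, 1 to 2 for the controls and 0 to 3 for cerebral day 7 minus day 3. Values that crossed 0 this way were Serping1 at cerebral day 3 (-0.0983 to 0.0392) and day 7 (-0.0907 to 0.0468), the tissue difference of C5ar1 at day 1 (-0.157 to 0.0490) and day 3 (-0.102 to 0.110), of C1qa (-0.140 to 0.433) and C4b (-0.363 to 0.205) at day 3, cord minus cerebrum at day 3 of C1qa (-0.0324 to 0.541) and C1qc (-0.0493 to 0.643), and the control difference of Serping1 (-0.0857 to 0.333) and C1qa (-0.0813 to 0.229). With the offset as exact, passing genes among all 19505 rose from 1234 to 3888 at cerebral day 3, from 1298 to 4340 at cerebral day 7, from 3887 to 7470 at cord day 3 and from 6210 to 9754 at cord day 7. No paired analysis was possible because the labels carry no replicate numbers. A batch term and a filter on dim probes were not run, since no batch is named and centred values hold no brightness.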
